A study of Mus musculus with 6 samples.

Results

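Class II and class IV histone deacetylases, with the Mef2 transcription factors that the class IIa enzymes bind, were followed in mouse hearts 4 days after myocardial infarction (MI). The members were taken by gene symbol: the class IIa enzymes Hdac4, Hdac5, Hdac7 and Hdac9, the class IIb enzymes Hdac6 and Hdac10, the class IV enzyme Hdac11, and the factors Mef2a, Mef2c and Mef2d. These 10 genes are 7 deacetylases and 3 Mef2 factors out of 26012 genes in the table, and all 10 were tested. Ventricular RNA came from male C57BL/6 mice aged 8 weeks, in which the left anterior descending (LAD) coronary artery had been permanently ligated. Directly afterwards 10 μg of mimic per heart was injected at sites around the infarct, either control mimic (3 hearts) or miR-19a and miR-19b mimics together (3 hearts). A mimic is a short double-stranded RNA made so that, once inside a cell, it works like the natural miRNA. All hearts carried the infarct and an injection, so no uninjured or uninjected heart enters the comparison, and whole ventricular tissue mixes infarct, border and remote muscle.

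Histone deacetylases remove acetyl groups from lysines, and on histones this closes chromatin to transcription. Class IIa enzymes have little catalytic activity of their own. They bind Mef2 at the promoters of muscle genes and recruit corepressors with Hdac3, until calcium-dependent kinases phosphorylate them and adaptor proteins carry them out of the nucleus. This release of Mef2 is a classical switch of cardiac growth and fetal gene expression, and Hdac5 and Hdac9 are known as brakes on hypertrophy in the mouse heart. Hdac6 acts in the cytoplasm on tubulin and cortactin, Hdac10 on acetylated polyamines, and Hdac11 removes fatty acyl groups from proteins such as the metabolic enzyme Shmt2.

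The injected miRNAs are shown first, because transcripts pair with a miRNA mainly through its seed. Capitals mark the seed, bases 2 to 8 counted from the 5′ end.
mmu-miR-19a-3p: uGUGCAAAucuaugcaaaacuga
mmu-miR-19b-3p: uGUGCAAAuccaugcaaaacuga
Both sequences are from RefSeq (GRCm38.p6), where miR-19a-3p lies at chr14:115044048-115044070 and miR-19b-3p at chr14:115044358-115044380, both on the plus strand, with a second copy of miR-19b-3p at chrX:52741991-52742013 on the minus strand. They share the seed and differ at 1 base, U11C. The letters searched on the sense strand of annotated 3′ UTRs (GENCODE M21, GRCm38) were TTTGCACA, the 8-mer, and TTTGCAC and TTGCACA, the 7-mers, each counted outside any 8-mer that holds it. In the longest 3′ UTR of each gene a match was present in 5 of the 10 members, where 19.3% of 15866 tested genes with a 3′ UTR had one. The 3′ UTRs of the members were long, with a median of 3392 bases against 1261 bases for all of these genes.

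The matches fell in Hdac4, Hdac9 and all 3 Mef2 genes, and Hdac11, Hdac5, Hdac6, Hdac7 and Hdac10 had none in any annotated 3′ UTR. They are printed in the sense of the transcript, 30 bases each, with the match in capitals.
Hdac4, chr1:91929866-91929872, minus strand: atattgtatacagatTTTGCACgccaaact
Hdac9, the 8-mer, chr12:34051446-34051453, minus strand: acagttcaaaaggagTTTGCACActacgcg
Hdac9, the match inside the deposited gene model, chr12:34371607-34371613, minus strand: ctgtatttattatgaTTTGCACccttggag
Mef2a, chr7:67234257-67234263, minus strand: cccacacataactgtTTTGCACgtgcaaaa
Mef2c, chr13:83663739-83663745, plus strand: ggtatatttgtgcagTTGCACAtttgagta
Mef2d, chr3:88168930-88168936, plus strand: ggaaaggggggacacTTTGCACgttgtaca
Hdac9 stood apart with 5 matches over its transcripts, 1 of them an 8-mer, but the gene model behind its deposited counts spans chr12:34371503-34528889, only part of its GENCODE locus (chr12:34047580-34917095), and holds 1 of the 5. A match is a description of these letters and not a site shown to be used.

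The deposited value is a normalized count, the reads counted on a gene divided by a size factor of the library. The libraries held 19398196 to 23645308 reads on genes. All 10 cardiomyocyte markers were detected in the labelled tissue. Their summed normalized count was 316328 to 419055 in the control mimic hearts against 562564, 513165 and 201896 in replicates 1, 2 and 3 of the miR-19a/19b mimic group. Replicate 3 of the mimic group thus lay below every other heart and replicates 1 and 2 above all controls. The sum of the 8 skeletal muscle markers was 2367 in mimic replicate 1 and 70.9 or less elsewhere. Summed T cell markers (7 genes) were lower in the mimic group without overlap, 168 to 194 against 218 to 317. The fibroblast (8 genes), endothelial (9), smooth muscle (5), macrophage (8), neutrophil (6), B cell (4), adipocyte (5) and Schwann cell and neuron (9) sums overlapped between the groups, and Lep, an adipocyte marker, was the only gene of the 11 lists at 0 in every heart. In tissue RNA, fewer cells of a type and less RNA per cell cannot be told apart.

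Hdac11, the sole class IV enzyme, was the member with the largest difference between the groups. Its normalized count was 67.4, 50.7 and 71.0 in the control mimic hearts (replicates 1, 2 and 3 in this order, as for all values by heart), and 137, 100 and 92.5 in the miR-19a/19b mimic hearts. Every mimic heart was above every control heart, and the highest was mimic replicate 1. The means were 63.1 ± 10.8 and 110 ± 23.6 (SD, n = 3 each), a 1.72-fold difference with a 95% confidence interval of 1.23 to 2.42. On the log2(normalized count + 1) scale the difference was 0.78 ± 0.22 (SE), with an adjusted p = 0.948 (limma, Benjamini-Hochberg over 21126 genes). It was past an unadjusted p of 0.05 but not past an adjusted p of 0.05, as no gene of the 21126 was. An exact permutation test of the 6 values (two-sided) gave p = 0.1, the smallest that 3 hearts against 3 allow. Groups without overlap always give this value, so the test adds nothing to the lack of overlap.

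The values of Hdac11 rest on few reads, namely 61, 52 and 76 in the control hearts and 127, 97 and 107 in the mimic hearts. For the lowest, 52 reads, the exact 95% Poisson interval was 38.8 to 68.2 reads, which covers counting error only. No interval was computed for the other hearts, so it does not compare the groups. The gene (ENSMUSG00000034245) lies at chr6:91156665-91174692 on the plus strand, and 96 and 594 bases of its exons are shared with Gm14573 and Gm44002 on the opposite strand. Strand use in the counting is not given in the sources used here, so reads of these overlaps cannot be assigned. Hdac11 was among the genes that the study itself picked from these libraries for a second measurement, so its difference here is not independent evidence.

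Hdac11 stayed higher whichever heart was left out. The log2 difference lay between 0.62 (without mimic replicate 1) and 0.89 (without mimic replicate 3, adjusted p = 0.0634) in limma, and it was past the unadjusted threshold in all 6 of these fits. With the mean level of the cardiomyocyte markers as a covariate, a term added after seeing the data, the difference was 0.77 (adjusted p = 0.113, limma). The test on recovered reads gave 0.80 with DESeq2 (adjusted p = 0.36) and 0.79 with edgeR (adjusted p = 0.915). With all 6 hearts the difference was 0.78, and without the heart of low cardiomyocyte markers 0.89. It was smallest without mimic replicate 1, the heart with the highest Hdac11 value and the highest skeletal muscle markers. The part of skeletal muscle RNA in the difference was not tested. The adjusted p was above 0.05 throughout.

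**Figure D1:**
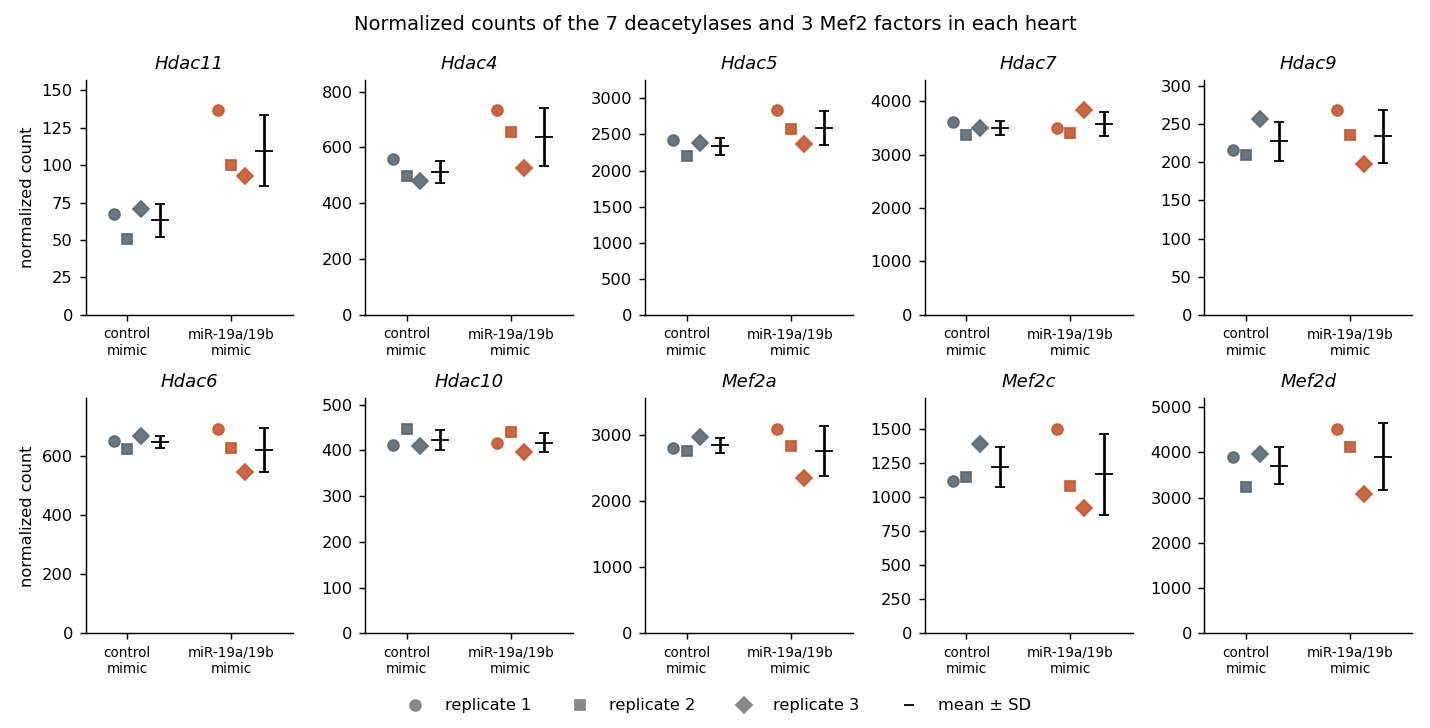
Normalized count (vertical axes, starting at 0) of each of the 10 genes in 3 control mimic hearts (grey) and 3 miR-19a/19b mimic hearts (orange). Marker shapes give the replicate and black bars the mean ± SD. The groups are apart for Hdac11 alone, with 92.5 as the lowest mimic heart and 71.0 as the highest control heart.

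Among the class IIa enzymes the widest difference was that of Hdac4, a repressor of Mef2 that responds strongly to CaM kinase II. Its normalized count was 557, 499 and 480.2 in the control hearts and 733, 656 and 526 in the mimic hearts. Mimic replicates 1 and 2 were above all controls and replicate 3 fell within their range. The means were 512 ± 40.1 and 638 ± 104 (SD, n = 3 each), and the log2 difference was 0.31 ± 0.14 (SE; 95% confidence interval -0.0068 to 0.62; adjusted p = 0.9996, limma). The exact permutation test (two-sided) gave p = 0.2. Hdac4 was just outside an unadjusted p of 0.05 in limma and changed sides with the setting. It was past that threshold with edgeR, with the replicate block, without mimic replicate 3 (log2 difference 0.44, adjusted p = 0.0612, limma) and with the cardiomyocyte covariate (0.29, adjusted p = 0.304, limma), and farthest from it without mimic replicate 1 (0.20). Of its exons, 3536 bases are shared with Gm26720 on the opposite strand.

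Hdac5, which is exported from the nucleus under protein kinase D signalling, had normalized counts of 2420.5, 2197 and 2386 in the control hearts and 2833, 2579 and 2362 in the mimic hearts. Again replicates 1 and 2 of the mimic group were above all controls and replicate 3 was among them. The log2 difference was 0.15 ± 0.11 (SE; 95% confidence interval -0.09 to 0.39; adjusted p = 0.9996, limma), and 0.21 without mimic replicate 3, past the unadjusted threshold (adjusted p = 0.322).

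Hdac7, the class IIa enzyme known for its role in endothelial cells, was the least variable of the class IIa genes in both groups. It measured 3615, 3369 and 3506 in the control hearts and 3491, 3411 and 3828 in the mimic hearts. Unlike the other class IIa genes, it was highest in mimic replicate 3, and the groups overlapped (log2 difference 0.03, 95% confidence interval -0.20 to 0.26, adjusted p = 0.9996, limma). Exons of Hdac7 share 29 bases with Slc48a1 on the opposite strand, a gene with a mean normalized count of 2819.

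Hdac9 is the enzyme whose short splice form, lacking the catalytic domain, still binds and represses Mef2. Its normalized counts were 217, 209 and 257 in the control hearts and 268, 236 and 198 in the mimic hearts. The mimic group held both the highest and the lowest heart (log2 difference 0.04, 95% confidence interval -0.31 to 0.38, adjusted p = 0.9996, limma). As 1 count per gene, these values do not tell the full-length and short forms apart, and the counted model covers only part of the locus.

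The class IIb enzymes varied little among control hearts, with coefficients of variation of 3.23% for Hdac6 and 4.96% for Hdac10. Hdac6, the tubulin deacetylase, measured 649.9, 625 and 666 in the control hearts and 692, 628 and 545 in the mimic hearts. Mimic replicate 1 was the highest of the 6 hearts and replicate 3 the lowest (log2 difference -0.06, 95% confidence interval -0.32 to 0.20, adjusted p = 0.9996, limma). Hdac10 measured 412, 447 and 409 in the control hearts and 416, 439 and 396 in the mimic hearts. Its groups covered nearly one range (log2 difference -0.02, 95% confidence interval -0.26 to 0.22, adjusted p = 0.9996, limma).

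The Mef2 factors, which switch on sarcomere and metabolic genes in muscle, did not differ between the groups by more than their spread. Mef2a measured 2801, 2756 and 2976 in the control hearts and 3095, 2834 and 2357 in the mimic hearts. Mef2c, the factor of early heart development, measured 1119, 1149.6 and 1387 in the control hearts and 1501, 1078 and 922 in the mimic hearts. Mef2d, which mediates stress-dependent remodelling of the adult heart, measured 3906, 3233 and 3964 in the control hearts and 4518, 4123 and 3082 in the mimic hearts. In each of the 3 genes mimic replicate 1 was the highest of the 6 hearts and mimic replicate 3 the lowest. The log2 differences were -0.05 for Mef2a (95% confidence interval -0.33 to 0.22), -0.09 for Mef2c (-0.49 to 0.31) and 0.07 for Mef2d (-0.30 to 0.43), each with an adjusted p = 0.9996 (limma). All 3 signs turned when a single heart was left out: without mimic replicate 3 the differences were 0.06 for Mef2a and 0.07 for Mef2c, and without mimic replicate 1 that of Mef2d was -0.05. Exons of Mef2a share 302 bases with Lysmd4 and those of Mef2d 531 bases with 1700113A16Rik, both on the opposite strand, at mean normalized counts of 311 and 11.7.

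**Figure D2:**
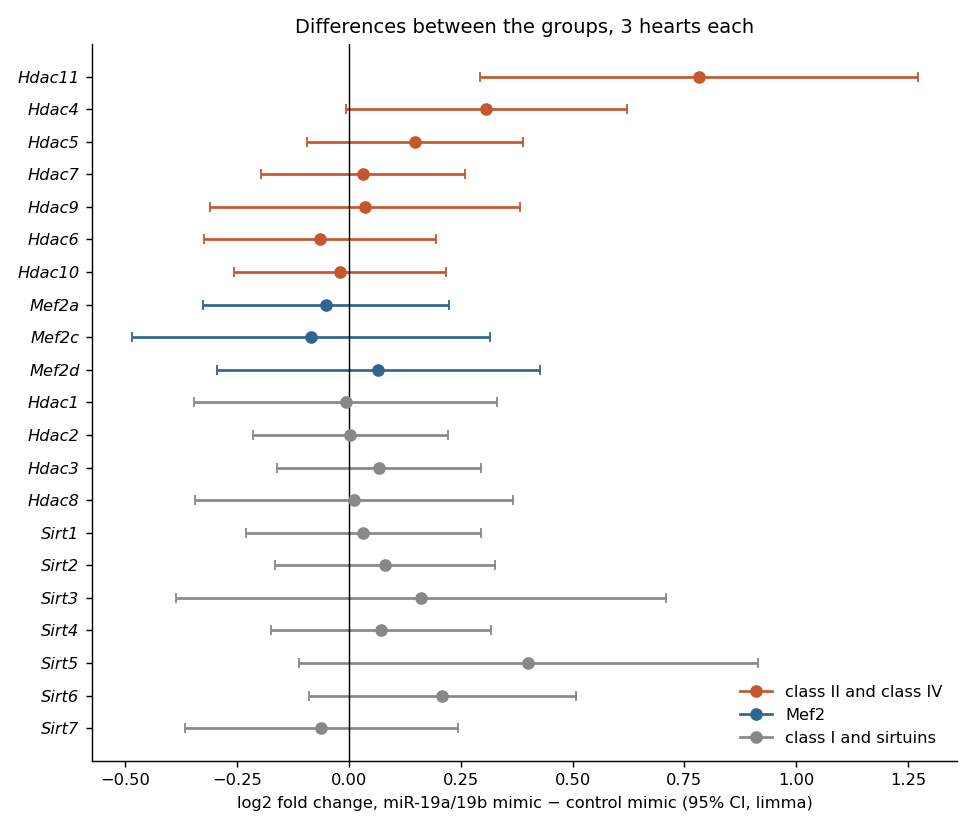
Log2 fold change of the miR-19a/19b mimic group over the control mimic group (horizontal axis, limma, point and 95% confidence interval, 3 hearts each) for the class II and IV deacetylases (orange), the Mef2 factors (blue), and the class I deacetylases and sirtuins (grey). Only the interval of Hdac11, 0.29 to 1.27, lies wholly on one side of 0, and that of Hdac4 ends at -0.0068.

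Counted over the 10 members, 0 passed an adjusted p of 0.05, where 0% of all genes did, and 1 (Hdac11) was higher and 0 lower at an unadjusted p of 0.05 in limma. Of all 21126 genes tested, 1.39% were higher and 2.63% lower by that rule. Hdac11 was also the 1 member whose groups did not overlap, against 3.90% of all genes that were higher without overlap and 5.30% that were lower. Both DESeq2 and edgeR likewise gave 0 members at an adjusted p under 0.05, where DESeq2 called 0.190% and edgeR 0% of the genes they tested. At an unadjusted p of 0.05, DESeq2 had 1 member higher (0.679% of its genes), and edgeR and limma with the replicate block had 2 (1.26% and 0.980%). The 95% confidence intervals of 8 members lay within 0.5 on the log2 scale to either side of 0, a 1.41-fold difference, and those of Hdac11 and Hdac4 did not. The 5 members with a miR-19 seed match had a median log2 difference of 0.04 and the 5 without one 0.03, beside -0.03 and 0.01 for the 3070 genes with and the 12796 without a match among all tested genes. No member with a match was lower at an unadjusted p of 0.05.

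The members varied more among the mimic hearts than among the controls. The SD was larger in the mimic group for all 10 members. The share of all genes with a larger SD there was not computed. Across the libraries, mimic replicate 3 differed from replicates 1 and 2 at a chi-square per degree of freedom of 135 and 121. Mimic replicates 1 and 2 differed at 11.2 and the control pairs at 10.3 to 26.6, so a wider spread was not limited to the members. The coefficient of variation ran from 3.23% (Hdac6) to 17.1% (Hdac11) in the control hearts and from 5.19% (Hdac10) to 25.6% (Mef2c) in the mimic hearts. Mimic replicate 1 was the highest of its group in 8 members, all but Hdac7 and Hdac10, and replicate 3 the lowest in 9, all but Hdac7. The share of all genes with this order of hearts was not computed, so the counts do not set the members apart. The cardiomyocyte markers had the same order, their mean log2 level standing 0.60 and 0.45 above the control mean in mimic replicates 1 and 2 and 0.89 below it in replicate 3. The T cell (-0.47, -0.61 and -0.65), adipocyte (-0.18, -0.40 and -0.54) and Schwann cell and neuron markers (0.19, -0.05 and -0.07) also fell from replicate 1 to replicate 3. The macrophage markers stood in the opposite order, at -0.44, -0.17 and 0.18. So did the neutrophil (-1.59, -0.10 and 0.30) and B cell markers (-0.46, -0.44 and 0.65), and the other marker lists had neither order. Among the members Mef2c stood 0.31, -0.17 and -0.39 from the control mean and Mef2d 0.29, 0.16 and -0.26. For Hdac11 the 3 hearts stood 1.12, 0.67 and 0.56 above the control mean. The part of the cardiomyocyte markers in the differences of the other members was not tested beyond the covariate, under which 2 of 10 members, Hdac11 and Hdac4, were higher at an unadjusted p of 0.05, where 4.09% of all genes were.

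**Figure D3:**
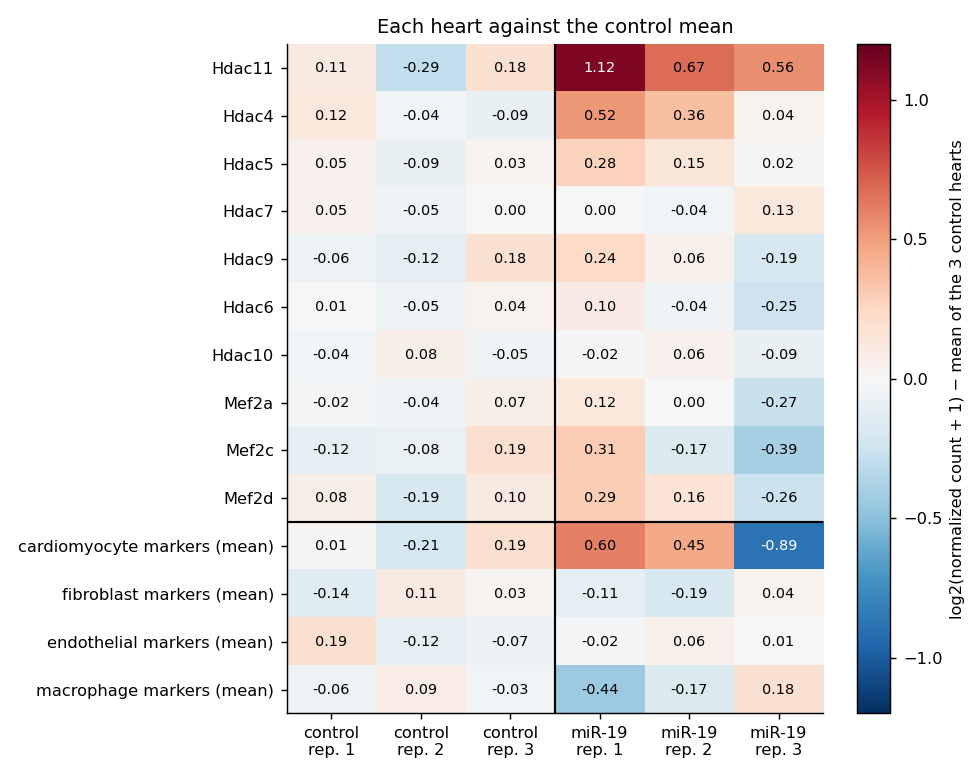
Log2(normalized count + 1) of each gene, or the mean over a marker list, minus its mean in the 3 control mimic hearts (colour and number), for the 6 hearts in columns. Mimic replicate 3 is blue for Mef2a, Mef2c, Mef2d, Hdac6 and Hdac9 and for the cardiomyocyte markers (-0.89), while Hdac11 is red in all 3 mimic hearts.

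Per kilobase of the gene length in the deposited table, levels could be compared between genes. Hdac7 (640 ± 30 normalized counts per kilobase, SD over the 6 hearts) and Mef2d (636 ± 91.4) were at the top, and their ranges overlapped, with Hdac7 above Mef2d in 3 of 6 hearts. Hdac5 (281 ± 24.9) and Mef2a (191 ± 17.2) followed, each apart from its neighbours in this order. Hdac10 (124 ± 5.72) and Hdac6 (109 ± 8.68) overlapped in range, although Hdac10 was the higher in 6 of 6 hearts. Hdac6 (lowest heart 93.6) in turn overlapped Mef2c (highest heart 95.5) in range and was the higher in 6 of 6 hearts. Below Hdac6 came Mef2c (75.9 ± 13.5), Hdac9 (52.2 ± 6.27), Hdac4 (37.4 ± 6.43) and Hdac11 (22.4 ± 7.89), each overlapping the next in range while standing above it in 6 of 6 hearts. Hdac11 was thus the least abundant member, at 13.2 to 18.4 per kilobase in the control hearts and 24.0 to 35.5 in the mimic hearts.

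The order depends on the length used. For Mef2a, Mef2c and Hdac4 the deposited length (14681, 15715 and 15375 bases) far exceeds the longest transcript (5538, 6277 and 8100 bases). GENCODE merged exons are longer than the deposited length for Hdac7 (6755 against 5530 bases) and Hdac9 (14665 against 4422 bases), and slightly so for Hdac4. Hdac7 and Mef2d changed places at the top under both other lengths, with Mef2d ahead at 704 against 683 per kilobase of the longest transcript and 636 against 524 per kilobase of GENCODE merged exons. Divided by the longest transcript, Mef2a moved from the fourth to the third place (506 per kilobase, above Hdac5 at 456) and Mef2c from the seventh to the fifth (190.0). Hdac9, the counts of which come from part of its locus, moved from the eighth place to the last, at 29.1 per kilobase of the longest transcript and 15.7 per kilobase of GENCODE merged exons, below Hdac11 at 32.6 and 22.4.

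**Figure D4:**
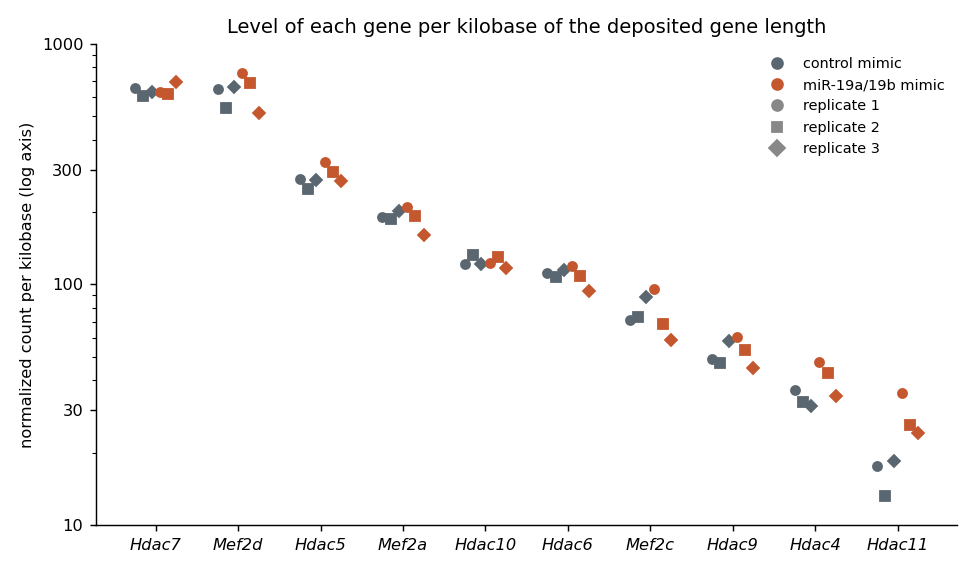
Normalized count per kilobase of the deposited gene length (vertical log axis) of the 10 genes in the 6 hearts, ordered by mean level from Hdac7 to Hdac11. Grey points are control mimic hearts, orange points miR-19a/19b mimic hearts, and shapes the replicates. Hdac11 is the lowest gene in every heart, between 13.2 and 35.5.

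At the deposited gene lengths, the composition within the families was similar over the 6 hearts. The shares, and the ratio of class IIa to Mef2 levels, depend on these lengths. Per kilobase of the longest transcript, the mean levels were 704 for Mef2d, 506 for Mef2a and 190 for Mef2c. Hdac4 was then above Hdac9, at 71 against 29.1. Per kilobase of the deposited length, Mef2d made up 67.4% to 72.5% of the summed Mef2 level over the 6 hearts, Mef2a 19.9% to 23.4% and Mef2c 7.22% to 9.26%. Mef2b, the remaining family member, was below the filter, at 1.87 normalized counts or fewer. Of the class IIa sum, Hdac7 made up 59.4% to 66.5%, Hdac5 25.9% to 30.4%, Hdac9 4.30% to 5.84% and Hdac4 3.14% to 4.49%. Neither set of shares separated the groups. The ratio of summed class IIa to summed Mef2 level per kilobase was 1.11, 1.17 and 1.04 in the control hearts and 1, 1.06 and 1.42 in the mimic hearts. The groups overlapped, and mimic replicate 3 had the highest ratio of the 6 hearts.

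The deacetylases of the other classes gave a comparison within the same hearts. The 4 class I enzymes, including Hdac3, the catalytic partner of class IIa complexes, had 0 members at an unadjusted p of 0.05 and a median log2 difference of 0.01, beside 0.00 for all genes. The largest was that of Hdac3 itself, at 0.07. Of all genes, 1.39% were higher and 2.63% lower at the unadjusted threshold. At such shares, this list and the next ones would hold few such genes or none. Of 23 kinases, adaptors and exporters that move class IIa enzymes out of the nucleus, 0 had an unadjusted p under 0.05, with a median of 0.00. The largest difference there was that of Sfn, a phosphoserine-binding adaptor, at -0.44, with overlapping groups. Of 8 corepressor genes 0 had an unadjusted p under 0.05 (median 0.02). Of 18 Mef2 partners and activators tested 0 had an unadjusted p under 0.05 (median -0.04), and the largest difference was that of Nfatc4, a calcineurin-dependent factor, at 0.27. Without mimic replicate 3 the counts were 5 of 23 kinases, adaptors and exporters (3 higher, 2 lower) and 3 of 19 Mef2 partners and activators (all higher), where 8.39% of all genes were higher and 6.08% lower.

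Of the 9 lists of pathway and target genes, only that of Mef2-dependent genes, most of them of muscle, had members past the unadjusted threshold. In this list 1 of 22 was higher and 2 lower (limma, 0 past the adjusted threshold, median -0.01), where 1.39% of all genes were higher and 2.63% lower. Nppa, the atrial natriuretic peptide of stressed ventricles, measured 2082, 2555 and 1447 in the control hearts and 1317, 1178 and 702 in the mimic hearts. All mimic hearts were below all controls, with a log2 difference of -0.94 (95% confidence interval -1.53 to -0.35, adjusted p = 0.9545, limma). Xirp2, which encodes an actin-binding protein of the intercalated disc, was also lower without overlap, at 35560, 37131 and 37036 against 33564, 25998 and 15601 (log2 difference -0.61, adjusted p = 0.9996, limma). Klf2, a flow-responsive factor of endothelial cells, was higher without overlap, at 1794, 2611 and 2761 against 3150.3, 3062 and 3017 (log2 difference 0.39, adjusted p = 0.9996, limma).

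The counts of this list moved with the hearts and terms in the fit. Without mimic replicate 3, the heart with the low cardiomyocyte markers, 12 of the 22 genes were higher and 1 lower at an unadjusted p of 0.05, where 8.39% of all genes were higher and 6.08% lower, and Ckm, Hrc, Itgb1bp2, Myl2, Pgam2 and Ppargc1a were among the genes past the adjusted threshold, 2.58% of those tested. Without mimic replicate 1, 0 were higher and 3 lower, with a median of -0.24, and 1 gene in all was past the unadjusted threshold with the replicate block, without control mimic replicate 1 or without mimic replicate 2. With the cardiomyocyte covariate 5 were higher and 4 lower, where 4.09% of all genes were higher and 5.27% lower, and Nppa and Xirp2, both lower, and Ppargc1a were past the adjusted threshold, among 99 genes in all. Ppargc1a, the coactivator of mitochondrial biogenesis, is singled out after its values were seen: it measured 1039, 741 and 1121 in the control hearts and 3133, 2980 and 644 in the mimic hearts. Replicates 1 and 2 were above all controls and replicate 3 below them. By the same rule, without mimic replicate 3, Hdac11, Hdac4 and Hdac5 were the 3 of 10 members that were higher, and 0 were lower or past the adjusted threshold.

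**Figure D5:**
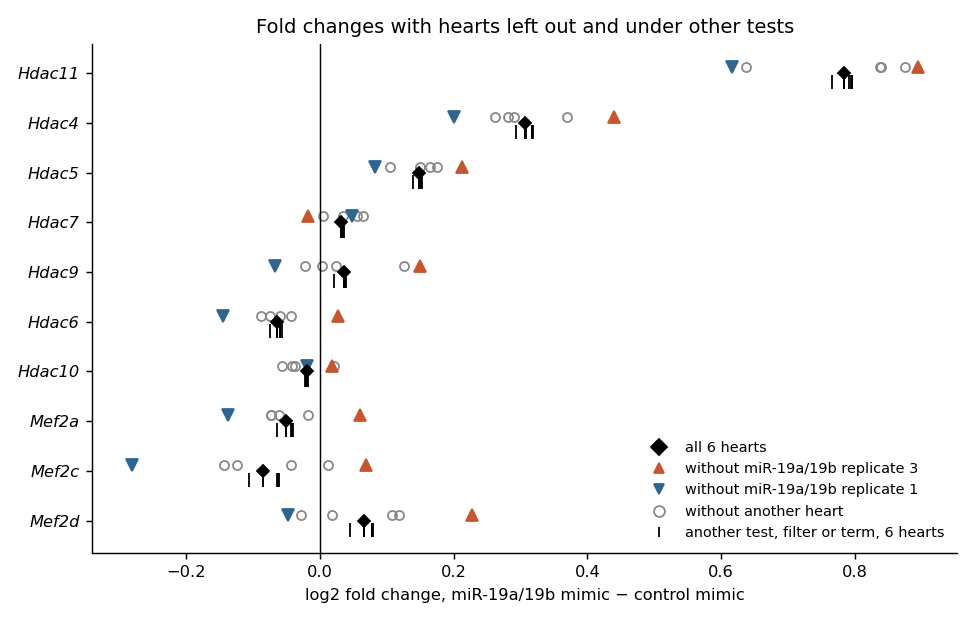
Log2 fold change (horizontal axis) of each of the 10 genes with all 6 hearts (black diamonds), with 1 heart left out (triangles for mimic replicates 1 and 3, open circles for the other hearts), and under another test, filter or term (ticks). Hdac11 stays between 0.62 and 0.89 with a heart left out, and Hdac6, Hdac7, Hdac9, Hdac10 and the 3 Mef2 genes lie on both sides of 0.

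The known substrates and targets of Hdac11 were few. Of 4 genes, 0 had an unadjusted p under 0.05 (median -0.01), where 1.39% of all genes were higher and 2.63% lower. The largest difference was that of Akap12, a scaffold protein, at -0.15, with all 3 mimic hearts below all controls. Among 11609 genes whose mean over the hearts was 100 normalized counts or more, the 5 whose centred log2 values over the 6 hearts lay nearest to those of Hdac11 were Cd163, Cacna1h, Gm12473, Stmn2 and Rasd1, with mean absolute differences of 0.13 to 0.17 on the log2 scale. Cd163, a scavenger receptor of resident macrophages, measured 851, 579 and 991 in the control hearts and 1445, 1238 and 972 in the mimic hearts, so its groups overlapped. Cacna1h, a T-type calcium channel subunit, measured 175, 108 and 177.5 in the control hearts and 239, 201 and 203 in the mimic hearts, with no overlap. Stmn2, a neuronal regulator of microtubules, measured 134, 112 and 117 against 202, 193 and 177, also with no overlap. These genes were chosen for their likeness in the same hearts, and the values are a description.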

How the data were processed

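RNA of 6 hearts was sequenced as 150-base read pairs from polyadenylated RNA. The submitters' notes name STAR 2.5.1b, HTSeq 0.6.0 and DESeq2 1.10.1, while the methods name edgeR. The notes name the build mm9, but the coordinates are those of GRCm38: 99.94% of 25884 identifiers were on the same chromosome as in GENCODE M21 and 82.7% had the same start and end. The authors divided the reads counted on each gene by a size factor of the library and deposited this signal as a normalized count. Of these values 100% were whole reads (tolerance 0.01) once multiplied by the size factor. The table also holds columns of the authors' comparison (fold changes, p-values), which were not used.

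Differences were tested with limma 3.58.1 (R 4.3.3, trended prior, two-sided) on log2(normalized count + 1) over 21126 genes with a mean of at least 1, with Benjamini-Hochberg adjustment and a threshold of 0.05. Since a pseudocount of 1 is added, fold changes of low genes are understated. DESeq2 1.42.0 and edgeR 4.0.16 on recovered reads, other filters, a pseudocount of 0.1, the replicate block and leaving out each heart were alternatives. Scripts were tested on simulated data. The members and lists were chosen with earlier results of these data known. Named genes were all members, in each of 9 lists the genes at an unadjusted p under 0.05 and the one with the largest change, and the 5 genes nearest to Hdac11. A gene named by this rule is not reported here.

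The study's methods give 3 biological replicates a group. Libraries of a group were not repeats of each other (chi-square per degree of freedom 10.3 to 135).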

Additional observations from a re-analysis of the deposited data

How the results depend on the processing

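The count of members past an adjusted p of 0.05 stayed at 0 and that of members lower at an unadjusted p of 0.05 at 0 under all alternatives run. The count higher at an unadjusted p of 0.05 was 1 and became 2, Hdac11 and Hdac4, with edgeR under TMM or RLE factors and with the cardiomyocyte covariate, chosen after seeing the data. With a heart left out it was 1 to 3, the largest without mimic replicate 3. Of all genes, 1.39% were higher in the main fit, 1.26% with edgeR (TMM) and 0.980% with the replicate block. The share was 4.09% with the covariate and 8.39% without mimic replicate 3. The replicate numbers did not pair the hearts (correlations of same-numbered deviations -0.0085, -0.0213 and -0.115), and with the replicate block the count was 2, again Hdac11 and Hdac4. Hdac11, Hdac4 and Hdac5 kept their direction in all 14 alternatives. With a heart left out, log2 differences ran from -0.145 to 0.0274 for Hdac6, -0.0183 to 0.0647 for Hdac7, -0.0671 to 0.15 for Hdac9, -0.0572 to 0.0211 for Hdac10, -0.137 to 0.0592 for Mef2a, -0.282 to 0.069 for Mef2c and -0.0482 to 0.228 for Mef2d, so each of these 7 signs turned. These fits hold fewer hearts than the main fit. The 8 alternatives with all 6 hearts turned 0 of the 10 signs. Hdac11 rests on 52 to 127 reads a heart, and its fold change is the least precise of the 10.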

Other observations

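Further groups around these enzymes were measured in the same 6 hearts. The 7 sirtuins are the NAD-dependent class of deacetylases. Of these, 0 had an unadjusted p under 0.05 in limma, where 1.39% of all genes were higher and 2.63% lower. The median log2 difference was 0.08, beside 0.00 for all genes. The largest was that of Sirt5, a mitochondrial enzyme that removes succinyl groups, at 0.40 (limma, adjusted p = 0.9996). Sirt5 measured 279, 232 and 274 in the control mimic hearts and 401, 439 and 232 in the miR-19a/19b mimic hearts, so that replicate 3 of the mimic group lay at the bottom of the range and replicates 1 and 2 above all controls. Without that replicate Sirt5 was past the adjusted threshold, as 547 genes (2.58% of those tested) were. In that fit 2 of the 7 sirtuins were higher at an unadjusted p under 0.05, where 8.39% of all genes were.

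Of 12 Hdac6 substrates and partners, 0 had an unadjusted p under 0.05 (median 0.05), where 1.39% of all genes were higher and 2.63% lower. The largest difference was that of Prdx2, a peroxidase that Hdac6 deacetylates, at 0.16 (limma, adjusted p = 0.9996). Without mimic replicate 3, 2 of the 12 were higher at an unadjusted p under 0.05, where 8.39% of all genes were. Tuba4a was then past the adjusted threshold, where 2.58% of all genes were, and the median was -0.0046. Of 11 genes of polyamine metabolism, the pathway of the Hdac10 substrate, 0 had an unadjusted p under 0.05 (median -0.06). The shares of all genes were again 1.39% higher and 2.63% lower. Without mimic replicate 3, 2 were higher by that rule, where 8.39% of all genes were. The largest difference there was that of Oaz1, the antizyme that sends ornithine decarboxylase to degradation. Oaz1 measured 11763, 10074 and 11503 in the control hearts and 13113, 13592 and 13183 in the mimic hearts, higher without overlap, with a log2 difference of 0.26 (limma, adjusted p = 0.9996). Odc1, the decarboxylase itself, is named after its values were seen: it measured 3297, 3185 and 2794 against 2609, 2773 and 2511, lower without overlap (log2 difference -0.23, limma, adjusted p = 0.9996). Of the 11 genes, 1 was thus higher and 1 lower without overlap, where 3.90% and 5.30% of all genes were. A link between Oaz1 and Odc1 was not tested.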
